A study of Mus musculus with 9 samples.

Results

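Gr-1+ cells from the spleens of IDO-KO hosts of allogeneic bone marrow were compared with the same cells from wild-type (WT) hosts, to see which genes differ in these cells when the host lacks IDO1. The comparison rests on 6 of the 9 arrays of the study, the 3 titled KO and the 3 titled WT, taken by their titles. KO hosts carried strain B6.129-Ido1tm1Alm/J (IDO KO), a germline deletion, and WT hosts were C57BL/6 (B6). A further 3 arrays came from C57BL/6 (B6) hosts of a syngeneic graft without graft-versus-host disease; they lent their spread to the test, and their levels are given beside the others. All hosts had a bone marrow transplant and were sampled on day 7, and the cells were taken from splenocytes with magnetic beads against Gr-1 (Ly6G). RNA was extracted only from preparations above 97% purity. The labels give neither the donors' strain, nor whether a sorted cell came from donor or host, nor the animals' age. Nor do they say whether replicate arrays stand for different mice, so every p-value here reflects array-to-array spread that could be purely technical.

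IDO1 is the enzyme that opens the breakdown of tryptophan to kynurenine. It is switched on by interferon-gamma in myeloid and endothelial cells, and it is known for restraining T cells, both by using up tryptophan and through kynurenine, which can engage the aryl hydrocarbon receptor. Gr-1 marks neutrophils and, more weakly, some monocytes. In graft-versus-host disease donor T cells attack host tissue and release interferon-gamma, to which splenic myeloid cells respond.

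A signal below is the deposited intensity of a gene's brightest probe, in arbitrary units, after the authors' background subtraction and quantile normalization. Differences are KO minus WT on a log2 scale. For these the signals were background-corrected again, with an offset of 50, and quantile-normalized. Differences can therefore not be recomputed exactly from the signals quoted. They carry the standard error of limma's fit over all 9 arrays (n = 3 arrays each). The p-values are adjusted over all 10871 genes tested by the Benjamini-Hochberg method. A gene is called when its adjusted p is under 0.05. A probe counts as above background when its signal exceeds 14.3, the 95th percentile over 1592 probes of olfactory, vomeronasal and taste receptors and keratin-associated proteins. Signals of different genes come from different probes and are not compared with each other. Acot1, Amy2a5, Ear6, Ifi213, Hba-a1 and Bcl2a1d have close copies in the genome that their probes may also read.

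The arrays were not equally alike. WT replicates 1 and 3 were near copies, with an SD over genes of 0.146 for their log2 difference, while WT replicate 2 differed from them by 0.856 and 0.86. KO replicates 2 and 3 differed by 0.175, and KO replicate 1 from these by 0.244 and 0.27. The mean correlation of an array with the others of its group was 0.998 for syngeneic arrays. For KO arrays it was 0.993 to 0.995 and for WT arrays 0.919 to 0.959. The spread used in the test was thus drawn in part from arrays closer to each other than those compared. WT replicate 2 stood apart in cell markers too. The summed signal of 14 mature neutrophil markers was 155000 to 157000 on the KO arrays, against 41100 on WT replicate 2 and 137000 and 133000 on WT replicates 1 and 3. For 15 T cell markers it was 16300 to 28300 on the KO arrays, 59900 on WT replicate 2 and 9550 and 9860 on the other WT arrays. For 12 erythroid markers it was 2380 to 10300 on the KO arrays, 78800 on WT replicate 2 and 11500 and 10600 on the other WT arrays. Counts are therefore also given without this array. The KO arrays lay on a chip of their own, and the WT and syngeneic arrays shared the other, so effects of chip and of genotype cannot be told apart. The KO arrays also differed from all others in Xist, which was below background on them alone, and in a probe of the Y-linked Eif2s3y, which was above background on them alone; the values are given with the sex-linked genes. In bulk RNA, fewer cells of a type and less RNA per cell cannot be told apart either.

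**Figure D1:**
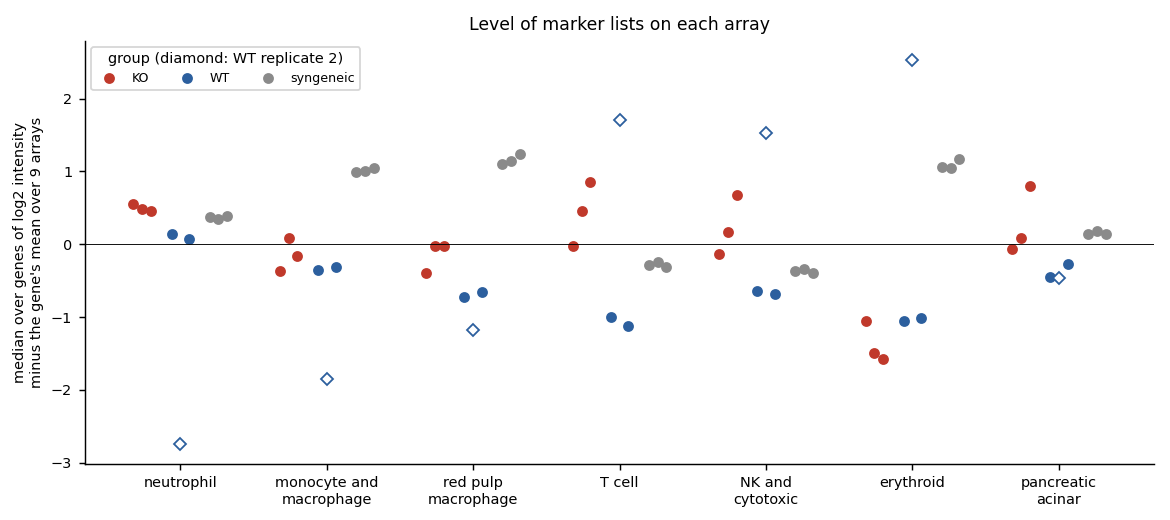
Levels of 7 marker lists on each array. The vertical axis gives the median over a list's genes of log2 intensity minus the gene's own mean over the 9 arrays; each point is an array, KO left, WT in the middle and syngeneic right, and the open diamond is WT replicate 2. The diamond lies at 1.7 for T cell and 2.53 for erythroid markers and at -2.75 for neutrophil markers, while the KO arrays spread from -0.03 to 0.85 for T cell markers.

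Ido1 itself was dim. Its probe read -2.27, 0.648 and -8.1 on KO replicates 1, 2 and 3, against 24.6, 33.8 and 20 on the WT arrays and 7.63, 3.87 and 13.3 on the syngeneic arrays. All KO and syngeneic arrays were below the background limit and all WT arrays above it, so the groups KO and WT did not overlap. The difference was -0.55 ± 0.095 (adjusted p = 0.032, and -0.49 without WT replicate 2), and against the background limit Ido1 was at least 1.14-fold lower in KO. Whether the probe lies in the deleted part of the gene was not examined. Of 9 members of the tryptophan list tested out of 18, 1 was called with all arrays, Ido1. Without WT replicate 2, 2 rose and 1 fell, against 10.2% and 9.78% of all genes. The rises were Qprt (0.38, limma adjusted p = 0.0175) and Wars (0.29, adjusted p = 0.0246), and the fall was Ido1. Ido2, a paralogue of Ido1, read 12.9, 13.5 and 7.91 on KO arrays and -0.463, 14.3 and 13.7 on WT arrays, and Kmo, the next hydroxylase of the pathway, at most 1.53 on KO and 9.38 on WT arrays, so neither was tested. Kynu, kynureninase, read 54, 56.4 and 45 on KO arrays and 59.7, 25.7 and 62.2 on WT arrays, which overlap (0.05 ± 0.13, adjusted p = 0.873).

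In all, 218 genes were called, which is 2.01% of those tested. Of these 128 (1.18%) were higher in KO cells and 90 (0.828%) lower, and for each of the 218 the 3 KO arrays lay on one side of the 3 WT arrays. The KO and WT arrays did not overlap for 23.4% of all genes tested, 10.8% with KO above WT and 12.6% with KO below. The median log2 difference was 0.83 over the genes called higher and -0.62 over those called lower, and 51 rises but 9 falls exceeded a 2-fold change. Over all genes tested the median was -0.02. Without WT replicate 2 the count was 2177 genes (20.0%), 1114 higher (10.2%) and 1063 lower (9.78%), among them all 218, each with the same sign. The count was 368, 33 and 41 without KO replicate 1, 2 and 3, 48 and 64 without WT replicate 1 and 3, and 55, 51 and 45 without syngeneic replicate 1, 2 and 3. A fit of the 6 KO and WT arrays alone called 2 genes, Tgm2 and Xist. In the limma fit over 9 arrays 2058 of the 10871 genes tested had an unadjusted p under 0.05. Counts of list members below, whether called, not overlapping or at this p, are to be read against these shares of all genes. Of 145 further probes of the called genes, 22 had the opposite sign. Among the genes named here these were dim second probes of Axl (-0.02), Vcam1 (-0.03), Il18rap (-0.05) and Ahnak (0.08), besides those given with their genes.

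**Figure D2:**
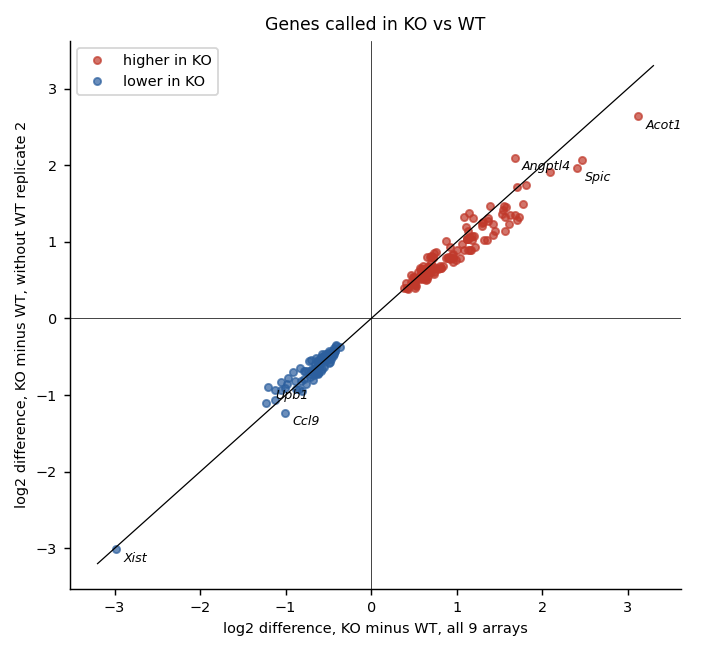
The 218 genes called in KO vs WT. The horizontal axis gives the log2 difference over all 9 arrays, the vertical axis the same without WT replicate 2, and the diagonal marks equal values; each point is a gene. No gene changed sign, Acot1 went down to 2.64 when the array was left out, and Angptl4 went up to 2.1.

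Several interferon-linked genes rose. Of 31 antiviral effectors tested, 5 rose and 0 fell (1.18% of all genes rose), with a median of 0.72 over the 31 against -0.02 over all genes. Leaving out WT replicate 2, 19 rose and 1 fell, and the median was 0.46. Isg15, a ubiquitin-like protein that is attached to other proteins and is secreted, read 9630, 11100 and 11900 on KO arrays, against 4280, 3010 and 4000 on WT arrays and 3210 to 3550 on syngeneic arrays. Every KO array was thus more than 2-fold above every WT array, and WT cells were close to syngeneic cells. The difference was 1.53 ± 0.14 (adjusted p = 0.00413). Oasl1, an oligoadenylate synthetase-like protein that blocks Irf7 translation in mice, had signals of 677, 791 and 1010 in KO cells and of 254 to 296 in WT cells (1.36 ± 0.13, adjusted p = 0.00413). Rsad2, or viperin, which makes an antiviral nucleotide, read 4850, 5110 and 6220 in KO cells and 2600, 1380 and 2590 in WT cells (1.32 ± 0.23, adjusted p = 0.032). Unlike Isg15 and Oasl1, Rsad2 was brightest in syngeneic cells, at 6920 to 7510. Ifit2, which binds foreign RNA, rose by 1.45 ± 0.29 (adjusted p = 0.0478), and Phf11d, an interferon-induced gene of the Phf11 cluster, by 1.19 ± 0.22 (adjusted p = 0.0354). Ifit3, a partner of the Ifit proteins chosen here after its values were seen, read 4540, 6690 and 7440 in KO cells and 1980, 409 and 1810 in WT cells. These did not overlap, but with WT replicate 2 so far below the others the gene missed the threshold (2.33 ± 0.5, adjusted p = 0.0605; 1.65 without that array, adjusted p = 5.91e-05).

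Of 24 interferon receptors, kinases, transcription factors and inhibitors tested, 5 rose and 0 fell, none of the 5 a receptor, with a median of 0.33, and without WT replicate 2 there were 10 rises and 3 falls. Irf7, the factor that amplifies type I interferon production, read 1610, 1880 and 2340 on KO arrays and 654, 324 and 632 on WT arrays, with 453 to 481 on syngeneic arrays (1.77 ± 0.24, adjusted p = 0.0144). KO values lay more than 2-fold above both other groups. Stat2, a transducer below the type I interferon receptor, read 667, 633 and 627 in KO and 314, 254 and 349 in WT cells (0.94 ± 0.11, adjusted p = 0.00804). Usp18, which removes Isg15 from its targets and restrains the same receptor, read 5380, 7180 and 8320 in KO and 3040, 2450 and 2830 in WT cells (1.29 ± 0.16, adjusted p = 0.00986). For both genes every KO array exceeded every WT array. Jak1, a kinase of interferon receptors, rose by 0.92 ± 0.089 on a probe that read 187, 227 and 184 in KO and 76.4, 77.1 and 68.1 in WT cells, while its dimmer second probe had a difference of -0.16. Parp14, an ADP-ribosyltransferase, rose by 0.51 ± 0.093 (adjusted p = 0.0356).

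Of 16 nucleic acid sensors and adaptors, 2 rose and 0 fell, Dhx58 and Trim34a, with a median of 0.42. Dhx58, the RNA sensor LGP2, read 2470, 3300 and 3120 in KO and 1780, 1070 and 1700 in WT cells (0.96 ± 0.19, adjusted p = 0.0482). Without WT replicate 2, 7 sensors rose and 2 fell, and the median was 0.22. Ifi213, of the interferon-inducible p200 family, was among the 15 largest rises, at 1640, 2980 and 3440 in KO cells, against 871, 679 and 913 in WT and 516 to 554 in syngeneic cells (1.58 ± 0.25, adjusted p = 0.0254).

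Guanylate-binding proteins and immunity-related GTPases, which coat vacuoles of pathogens and are strongly induced by interferon-gamma, had 3 of 12 members higher and 0 lower, with a median of 0.47. Without WT replicate 2 this was 10 of 12, the highest share among the pathway lists, with a median of 0.51. The 3 called members read higher in KO than in WT cells, and lowest in syngeneic cells. Gbp2 read 25500, 25400 and 27700 in KO cells, 17100, 14800 and 19100 in WT cells and 4170 to 4420 in syngeneic cells (0.63 ± 0.1, KO minus WT, adjusted p = 0.028). Gbp7 read 1210, 1330 and 1050 in KO cells, 492, 738 and 633 in WT cells and 168 to 197 in syngeneic cells (0.88 ± 0.14, adjusted p = 0.028). Irgm2 had 6240, 7280 and 6120 in KO cells, 4260, 3740 and 4310 in WT cells and 2240 to 2520 in syngeneic cells (0.66 ± 0.1, adjusted p = 0.0231). For all 3 genes the lowest KO array exceeded the highest WT array.

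The short element to which interferon-activated factors bind was looked for in the promoters of the genes called, since several of the rises belong to this response. The letters searched were GAAANNGAAA on both strands in the 250 bases before the start of transcription, in RefSeq promoters of build GRCm38.p6. They occurred in 10 of the 99 promoters found for genes higher in KO cells (10.1%) and in 2 of 77 for genes lower (2.6%), against 3.58% of the 8857 promoters found for genes tested and 3.46% of all 27025. Without WT replicate 2 the shares were 6.77% of 872 and 2.18% of 873. For the palindrome TTCNNNGAA, the letters of STAT dimer sites, the shares were 12.1% of promoters of genes higher, 6.49% of genes lower and 7.59% of genes tested. Matches of 5 interferon-linked genes are shown because these genes carry the rises described above; capitals mark the match, which is the reverse complement of the letters searched in Gbp2, Gbp7 and Stat2. A match is a string of letters and not a measured binding site.
Isg15, chr4:156200845-156200914, minus strand: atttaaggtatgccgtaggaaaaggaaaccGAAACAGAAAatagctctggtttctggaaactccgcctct
Gbp2, chr3:142620574-142620643, plus strand: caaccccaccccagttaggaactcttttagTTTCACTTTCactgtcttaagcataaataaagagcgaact
Gbp7, chr3:142530253-142530322, plus strand: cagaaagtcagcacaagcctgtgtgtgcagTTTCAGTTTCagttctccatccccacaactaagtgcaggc
Irgm2, chr11:58214883-58214952, plus strand: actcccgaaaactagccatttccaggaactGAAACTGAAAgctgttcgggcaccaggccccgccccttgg
Stat2, chr10:128270248-128270315, plus strand: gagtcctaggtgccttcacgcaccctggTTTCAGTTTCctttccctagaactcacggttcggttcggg
In Isg15, Gbp2, Gbp7 and Irgm2 the match begins 66, 59, 53 and 64 bases before the start, and in Stat2 222 bases before it. The Isg15 promoter holds 2 further matches just before it, each overlapping its neighbour.

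Of 16 genes of MHC class I peptide presentation, 1 rose, Tap2, a subunit of the peptide transporter, which read 5470, 6640 and 7020 in KO and 4340, 3930 and 4160 in WT cells (0.61 ± 0.11, adjusted p = 0.0367). In 7 of the 16 every KO array was brighter than every WT array, against 10.8% of all genes. Without WT replicate 2, 5 rose and 0 fell, against 10.2% and 9.78% of all genes. Of 11 MHC class II genes 0 were called and 0 passed an unadjusted p of 0.05 in limma, and without WT replicate 2 there were 2 rises and 2 falls. Of 12 costimulatory and checkpoint ligands, 1 rose, Cd274, which encodes PD-L1, the ligand that inhibits T cells through PD-1. Its signals were 3530, 4420 and 4700 in KO cells, 1510, 879 and 1700 in WT cells and 897 to 1000 in syngeneic cells. The KO arrays were all at least 2-fold above the highest WT array (1.62 ± 0.22, adjusted p = 0.0169). Of the 12 ligands, 3 rose and 0 fell without WT replicate 2. Among 13 suppressor effectors of myeloid cells 0 were called with all arrays. In limma 3 passed an unadjusted p of 0.05, as did 2058 of all 10871 genes. Without WT replicate 2, 3 rose and 1 fell, against 10.2% and 9.78% of all genes. The rises were Il10 (1.21), Clec4e (0.49) and Hif1a (0.42), and the fall was Ptges (-0.36). With all arrays Il10, interleukin-10, had 0.82 ± 0.35 (limma adjusted p = 0.255). Arg1, arginase 1, was near background, at 36.2, 40.3 and 23.4 in KO cells and 25.7, 12.2 and 7.99 in WT cells (adjusted p = 0.2).

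**Figure D3:**
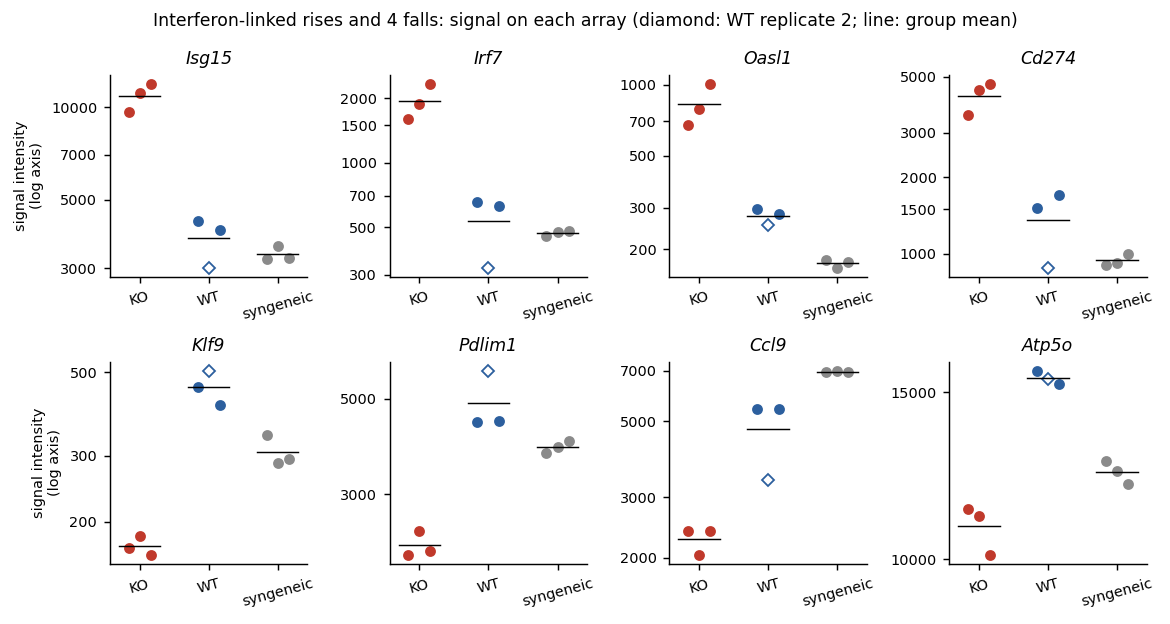
Signal intensity (log axis) on each array for 4 interferon-linked genes in the upper row and 4 genes lower in KO cells in the lower row. KO is left, WT in the middle and syngeneic right; points are arrays, the open diamond is WT replicate 2 and the line is the group mean. KO arrays lie above all WT arrays in the upper row, with Isg15 at 9630 to 11900 against 3010 to 4280, and below all of them in the lower row, with Klf9 at 163 to 183 against 410 to 504.

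Some genes of lipid use rose, among them Acot1, the largest rise of the comparison. Of 18 PPAR targets and fatty acid oxidation genes tested, 5 rose and 0 fell (Acot1, Plin2, Angptl4, Acadl and Slc25a20), with a median of 0.39 over the 18, and without WT replicate 2, 9 rose and 0 fell with a median of 0.24. Acot1, a thioesterase that frees fatty acids from coenzyme A, read 7480, 5350 and 7090 on KO arrays, against 1000, 327 and 990 on WT arrays and 2090 to 2270 on syngeneic arrays. The lowest KO array was over 5-fold above the highest WT array. The difference was 3.12 ± 0.36 (adjusted p = 0.00841), a fold of 8.68, and 2.64 without WT replicate 2. A second Acot1 probe, dimmer, gave 2.73. Slc25a20, which carries acylcarnitines into mitochondria, read 4120, 4330 and 5010 in KO and 1980, 1650 and 2230 in WT cells (1.18 ± 0.12, adjusted p = 0.00498). Plin2, the coat protein of lipid droplets, read 2020, 2180 and 2430 in KO and 833, 325 and 896 in WT cells (1.7 ± 0.31, adjusted p = 0.0354). Acadl, a long-chain acyl-CoA dehydrogenase, read 498 to 509 in KO and 245 to 322 in WT cells (0.7 ± 0.1, adjusted p = 0.0223). In each of these genes the KO arrays lay close together and above all WT arrays.

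Angptl4, a secreted inhibitor of lipoprotein lipase, differed from the others in how WT replicate 2 behaved. It read 1110, 930 and 1030 in KO cells and 183, 541 and 192 in WT cells, with 633 to 656 in syngeneic cells (1.68 ± 0.3, adjusted p = 0.0354). The difference was 2.1 without WT replicate 2. Its other probe, near background, had a difference of -0.13. Hilpda, a lipid droplet protein that was chosen here after its values were seen, had the same shape, at 1140, 937 and 927 in KO and 250, 583 and 160 in WT cells (1.56 ± 0.33, adjusted p = 0.0578; 1.99 without WT replicate 2). Pparg, the nuclear receptor whose targets several of these genes are, read 422, 483 and 501 in KO and 319, 92.5 and 281 in WT cells, and was highest in syngeneic cells, at 1580 to 1710 (0.94 ± 0.29, adjusted p = 0.142). Without WT replicate 2 Pparg was called, with a difference of 0.54 (limma adjusted p = 0.00189). Of 14 LXR targets 1 rose, Apoe, and of 17 cholesterol synthesis genes 1 rose, Fdps, farnesyl diphosphate synthase, at 13100 to 14100 in KO and 6910 to 9090 in WT cells (0.77 ± 0.11, adjusted p = 0.0188). The median over the 17 was -0.13, and without WT replicate 2 there were 1 rise and 4 falls. Of the 14 LXR targets 2 rose and 1 fell without that array.

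**Figure D4:**
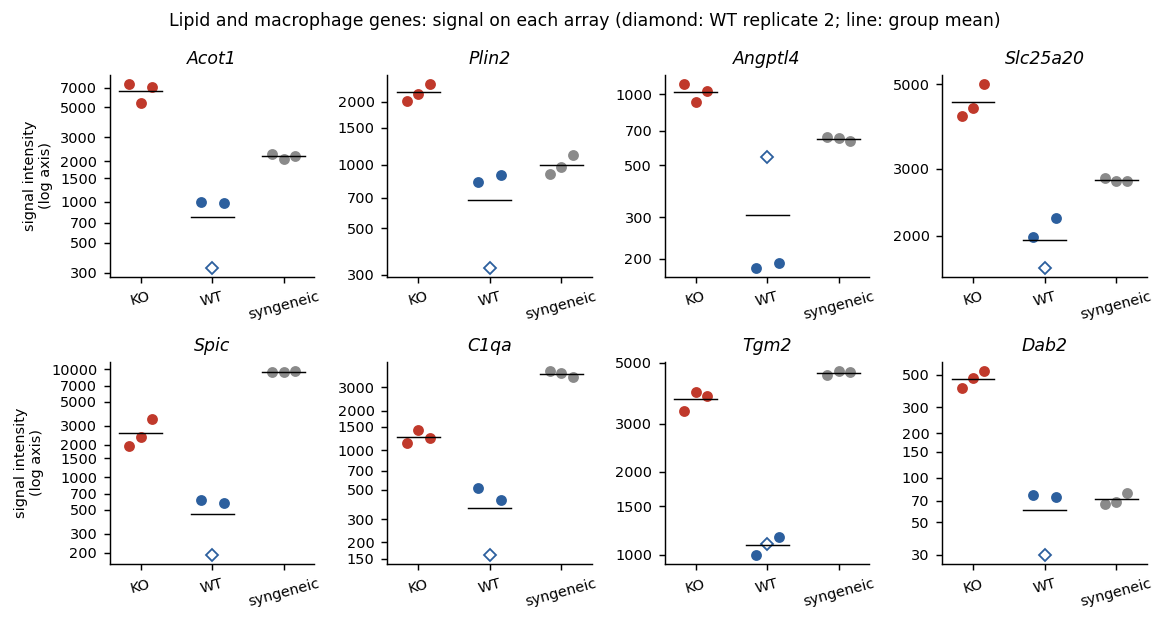
Signal intensity (log axis) on each array for 4 lipid genes in the upper row and 4 macrophage or uptake genes in the lower row. KO is left, WT in the middle and syngeneic right; points are arrays, the open diamond is WT replicate 2 and the line is the group mean. KO lies above WT in every panel, while syngeneic arrays lie far above both for Spic (9360 to 9580) and C1qa (3600 to 3990) and far below KO for Dab2 (66.7 to 79.1).

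Some macrophage genes rose too, and the 3 called below were brightest in syngeneic cells. Of 19 red pulp macrophage, haem and iron genes, 3 rose and 0 fell, with a median of 0.46; without WT replicate 2, 9 rose and 0 fell. Spic, the transcription factor that red pulp macrophages need, read 1940, 2350 and 3410 on KO arrays, against 613, 190 and 573 on WT arrays and 9360 to 9580 on syngeneic arrays. The 3 groups did not overlap, and KO lay between the other two (2.41 ± 0.36, adjusted p = 0.0223, and 1.96 without WT replicate 2). Vcam1, an adhesion molecule of these macrophages, read 3050, 3870 and 3180 in KO and 1700, 939 and 1740 in WT cells, with 17100 to 17500 in syngeneic cells (1.21 ± 0.22, adjusted p = 0.034). Trf, transferrin, read 3550, 4410 and 3970 in KO and 1670, 707 and 1630 in WT cells, with 12300 to 13800 in syngeneic cells (1.61 ± 0.28, adjusted p = 0.0327). Both showed the same order of groups as Spic. Hmox1, which degrades haem, and Mrc1, the mannose receptor, both chosen after their values were seen, were not called (adjusted p = 0.13 and 0.0719), though all their KO arrays lay above all WT arrays. Without WT replicate 2 both were called, with differences of 0.92 and 1.09 (limma adjusted p = 0.00283 and 0.00015).

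Of 22 genes of complement C1q and of receptors of apoptotic cell and scavenger uptake, 6 rose and 0 fell, with a median of 0.66. Without WT replicate 2, 11 rose and 4 fell, with a median of 0.38. C1qa, the A chain of C1q, which tags dying cells, read 1130, 1420 and 1240 in KO cells, 513, 160 and 419 in WT cells and 3600 to 3990 in syngeneic cells (1.73 ± 0.3, adjusted p = 0.0327). C1qb and C1qc, the other chains, which were chosen after their values were seen, had the same order of groups and differences of 1.82 ± 0.41 and 1.8 ± 0.37 (adjusted p = 0.0711 and 0.0544; 1.24 and 1.28 without WT replicate 2, both called). Mertk and Axl are receptor kinases that bind phosphatidylserine on dying cells through bridging proteins. Mertk read 480, 634 and 714 in KO and 200, 92.7 and 200 in WT cells (1.57 ± 0.21, adjusted p = 0.0164), and Axl 4380, 5580 and 4910 in KO and 1860, 932 and 1920 in WT cells (1.68 ± 0.25, adjusted p = 0.0214). Both were again highest in syngeneic cells, Axl at 14300 to 15700. The ligands that bridge these kinases to dying cells, Gas6 and Pros1 (protein S), were not called, with differences of 0.17 ± 0.14 and -0.65 ± 0.29 (adjusted p = 0.55 and 0.269). Without WT replicate 2 Gas6 had 0.02 and was not called, while Pros1 fell by 1.02. Mfge8, which bridges dying cells to integrins, had -0.83 ± 0.18 (adjusted p = 0.0629), and it fell by 0.6 without WT replicate 2. The falls without that array were not only of bridging ligands. Stab1 and Msr1, scavenger receptors, had -0.9 ± 0.22 and 0.05 ± 0.37 with all arrays (limma adjusted p = 0.083 and 0.952). Without WT replicate 2 they fell by 0.63 and 0.47, while Stab2, of the same list, rose by 0.45. Gas6, Pros1, Mfge8, Stab1, Msr1 and Stab2 were chosen after their values were seen.

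Tgm2, Dab2 and Cfb of the same list had other patterns. Tgm2, a transglutaminase that supports engulfment, read 3320, 3920 and 3780 in KO cells, 997, 1090 and 1160 in WT cells and 4510 to 4660 in syngeneic cells. Here WT replicate 2 sat between the other WT arrays. The difference of 1.7 ± 0.092 (adjusted p = 0.000295) was called in all 18 alternative fits. Other called genes named here kept their call in 4 to 17 of the 18, a fit without the gene counting as no call. The count was 4 for Bcl2a1d, 5 for Ifit2, Dhx58 and Apoe, 6 for Angptl4 and 7 for Plin2. For Acot1, Dab2 and Isg15 it was 17. Dab2, an endocytic adaptor, read 404, 471 and 529 in KO cells, against 76.3, 29.9 and 74.1 in WT and 66.7 to 79.1 in syngeneic cells (2.09 ± 0.16, adjusted p = 0.00236). It was thus about level in WT replicates 1 and 3 and syngeneic cells and higher in KO cells. Cfb, complement factor B, read 58 to 64.5 in KO cells and 5.73 to 20.4 in WT cells, in part below background (0.71 ± 0.089, adjusted p = 0.0113).

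The summed signal of 13 monocyte and macrophage markers was 41500, 44000 and 43200 on KO arrays and 41400, 13400 and 44800 on WT arrays, which overlap. Of these 13 markers, 2 rose (Apoe and C1qa) and 0 fell, and without WT replicate 2 there were 4 rises and 2 falls. Apoe, a lipid carrier of macrophages, read 558, 702 and 536 in KO cells, 319, 134 and 265 in WT cells and 3200 to 3320 in syngeneic cells (1.16 ± 0.22, adjusted p = 0.0461). The part of cell composition in these rises was not tested.

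A few attractant and interleukin-1 genes were called. Of 14 CC chemokines, 2 rose and 1 fell, and without WT replicate 2, 6 rose and 3 fell. Ccl7 and Ccl12, which attract monocytes through Ccr2, were dim outside KO cells. Ccl7 read 115, 195 and 367 in KO cells, 5.19, 5.16 and 26.4 in WT cells and at most 5.39 in syngeneic cells (1.81 ± 0.28, adjusted p = 0.0231), and Ccl12 121, 111 and 226 in KO, 14.8, 5.91 and 29 in WT and 14.1 to 18.2 in syngeneic cells (1.37 ± 0.19, adjusted p = 0.017). Ccl9, a chemokine that myeloid cells make, went the other way, at 2390, 2040 and 2400 in KO cells, 5420, 3380 and 5430 in WT cells and 6940 to 6990 in syngeneic cells (-1.01 ± 0.18, adjusted p = 0.032). Of 6 CXC chemokines, Cxcl12, which holds progenitors and neutrophils in the marrow, rose to 137, 146 and 145 in KO cells, against 36.9, 10.5 and 27.6 in WT cells (1.2 ± 0.11, adjusted p = 0.00413). Of the 6, 2 rose and 1 fell without WT replicate 2. Of 15 attractant receptors, Ccrl2, which binds chemerin, rose (0.7 ± 0.14, adjusted p = 0.0461). Of the 15, 5 rose and 2 fell without WT replicate 2. Of 16 inflammasome and interleukin-1 genes, 2 rose and 0 fell, with a median of 0.62, and without WT replicate 2 there were 7 rises and 1 fall with a median of 0.32. Il1a, interleukin-1 alpha, read 94.8, 160 and 119 in KO and 48.2, 10.2 and 37.3 in WT cells (0.96 ± 0.17, adjusted p = 0.0348), and Il18rap, an interleukin-18 receptor chain that lymphocytes also make, 280, 363 and 410 in KO and 195, 119 and 191 in WT cells (0.84 ± 0.16, adjusted p = 0.0461). Il1r2, the decoy receptor, and Il1b, chosen after their values were seen, had differences of 2.4 ± 0.81 and 2.25 ± 1 that missed the threshold (adjusted p = 0.166 and 0.274), with WT replicate 2 at 105 and 104 where the other WT arrays read 1660 and 1900, and 3330 and 3160. Without that array the differences were 1.26 and 0.82, both called, and that of Il1a was 0.79. Of 17 other cytokine and prostaglandin genes 0 were called, with 2 in limma at an unadjusted p under 0.05. Of these 17, 2 rose and 4 fell without WT replicate 2. Of 19 Toll-like receptors and adaptors, 0 rose and 1 fell, although the median was 0.6 and 11 of the 19 had all KO arrays above all WT arrays, against 2 with KO below. Without WT replicate 2 the median was 0.23, with 6 rises and 2 falls, against 10.2% and 9.78% of all genes. The called gene was Tlr11, a receptor of parasite profilin in mice, at 37.5 to 49.8 in KO and 80.9 to 114 in WT cells (-0.59 ± 0.097, adjusted p = 0.028).

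A few stress and starvation genes were called. Of 25 ATF4 targets, through which cells answer a lack of amino acids, 2 rose (1.18% of all genes rose) and 0 fell, with a median of 0.18, and 8 rose and 0 fell without WT replicate 2. Trib3, a pseudokinase induced by ATF4, read 194, 152 and 185 in KO and 51, 22.1 and 76.8 in WT cells (1.09 ± 0.16, adjusted p = 0.0223), and Atf5, a related factor, 354 to 429 in KO and 180 to 272 in WT cells (0.67 ± 0.13, adjusted p = 0.0461). Of 17 genes of the unfolded protein response 0 were called and 7 passed an unadjusted p of 0.05 in limma. Without WT replicate 2, 3 rose and 2 fell. With all arrays the gene nearest to a call was Xbp1 (0.64 ± 0.14, adjusted p = 0.0578). Of 17 glucocorticoid-induced genes, 2 rose, Txnip and Mertk, and 1 fell, Klf9, against 2.01% of all genes called. Without WT replicate 2, 7 rose and 1 fell, against 10.2% and 9.78% of all genes. Klf9, a Kruppel-like factor induced by glucocorticoids, read 170, 183 and 163 on KO arrays, against 457, 504 and 410 on WT arrays and 287 to 340 on syngeneic arrays. KO was below both other groups and WT above syngeneic (-1.13 ± 0.097, adjusted p = 0.00338). Txnip, an inhibitor of glucose uptake, read 8750, 10400 and 10600 in KO and 5730, 4220 and 5640 in WT cells (0.93 ± 0.14, adjusted p = 0.0223). Bcl2a1d, an antiapoptotic gene of neutrophils, rose by 1.09 ± 0.21 as 1 of 13 BCL2 family genes (adjusted p = 0.0468). Of the 13, 4 rose and 1 fell without WT replicate 2.

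Leaving aside Xist, which is given with the sex-linked genes below, and genes with clone or predicted names, the 15 largest falls ranged from -1.23 to -0.81. The first of these was Kctd14, of the potassium channel tetramerisation domain family, at 74, 69.6 and 44.9 in KO cells, against 205, 299 and 213 in WT and 218 to 273 in syngeneic cells (-1.23 ± 0.15, adjusted p = 0.00948). Pdlim1, an actin-associated LIM protein, read 2170, 2470 and 2220 in KO cells, 4420, 5800 and 4440 in WT cells and 3740 to 3990 in syngeneic cells (-1.06 ± 0.12, adjusted p = 0.00755). Nfix, a nuclear factor I member active in haematopoietic progenitors, read 529, 481 and 430 in KO and 939, 1180 and 978 in WT cells (-1.01 ± 0.12, adjusted p = 0.00878). In all 3 genes the highest KO array lay well below the lowest WT array. Btla, an inhibitory receptor of lymphocytes, fell by 0.92 to 314, 407 and 356 in KO cells, against 620, 1020 and 622 in WT cells. Ear6, an eosinophil-associated ribonuclease, fell by 1.06 and was the 1 called among 11 eosinophil, basophil and mast cell markers, of which 6 rose and 1 fell without WT replicate 2. Upb1 (-1.21), an enzyme of pyrimidine breakdown, Pdp2 (-0.97), a pyruvate dehydrogenase phosphatase, Ube2v1 (-0.89), a ubiquitin-conjugating enzyme variant, Mdk (-0.88), the growth factor midkine, Dusp23 (-0.84), a phosphatase, Hivep3 (-0.83), a zinc finger factor, Ahnak (-0.81), a very large scaffold protein, and Fam174c (-0.98) complete the 15 with Ccl9 and Klf9.

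Few mitochondrial and mitotic genes were called. Of 55 genes of the respiratory chain and ATP synthase, 0 rose and 2 fell (0.828% of all genes fell), while 28 passed an unadjusted p of 0.05 in limma; the median was -0.23, and without WT replicate 2 there were 1 rise and 11 falls. Atp5o, a stalk subunit of ATP synthase, read 11300, 11100 and 10100 in KO cells, 15800, 15500 and 15300 in WT cells and 12000 to 12700 in syngeneic cells (-0.52 ± 0.075, adjusted p = 0.0203). Atp5k, another subunit, was dim and fell by 0.58 (adjusted p = 0.0303). Atp5b, the catalytic beta subunit, chosen after its values were seen, had a difference of 0.24 ± 0.075 (adjusted p = 0.139) and rose without WT replicate 2. Of 21 mitosis genes 0 were called, 8 passed an unadjusted p of 0.05 in limma and the median was -0.19; without WT replicate 2, 8 fell and 0 rose. Cenpa, the centromeric histone, read 13800, 15700 and 14500 in KO and 18600, 18100 and 18400 in WT cells (-0.33 ± 0.075, adjusted p = 0.0727), and Cdc20, Birc5 and Bub1b had differences of -0.35, -0.32 and -0.35 with adjusted p of 0.073, 0.0814 and 0.083. Of 23 DNA replication genes 0 were called, 2 in limma at an unadjusted p under 0.05, with 1 rise without WT replicate 2. Of 51 ribosomal proteins 1 fell, Rps2, at 30300 to 32400 in KO and 41100 to 42800 in WT cells (-0.42 ± 0.069, adjusted p = 0.028), but its other bright probe had a difference of 0.14. Of the 51, 2 rose and 3 fell without WT replicate 2.

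**Figure D5:**
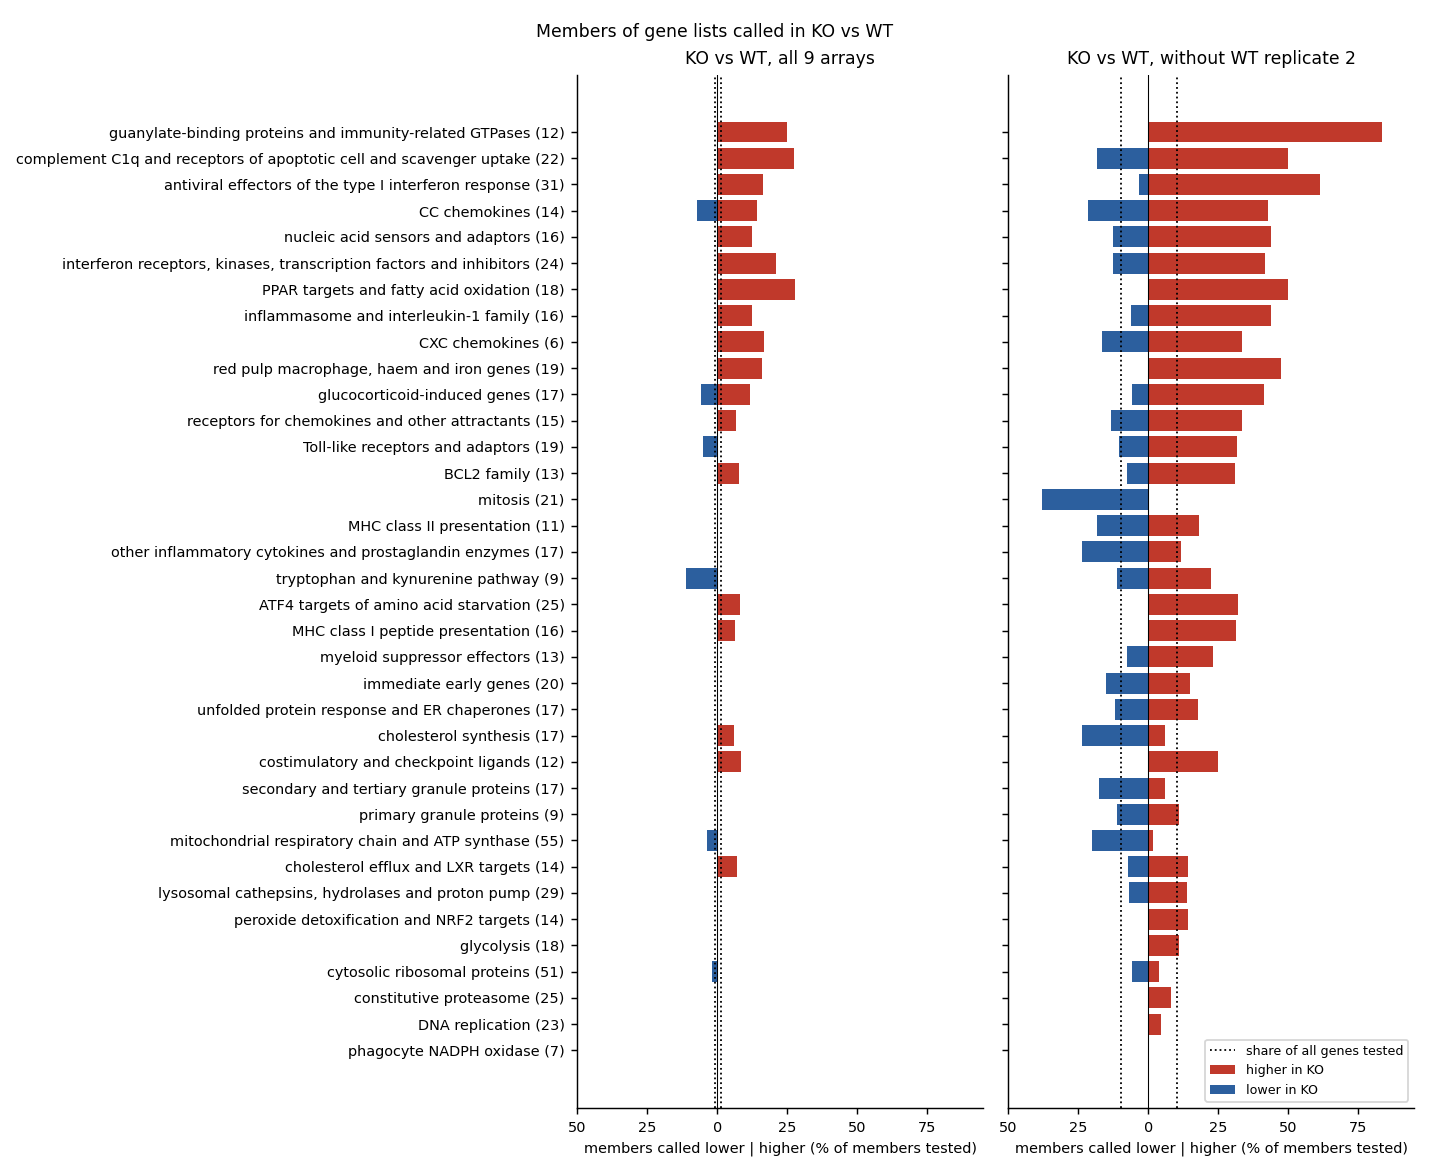
Share of the tested members of each of 36 pathway lists called higher (right) or lower (left) in KO vs WT, as percent of members tested, with all 9 arrays (left panel) and without WT replicate 2 (right panel). Numbers in brackets are members tested and dotted lines are the shares over all genes tested, 1.18% and 0.828% in the left panel and 10.2% and 9.78% in the right. With all arrays the PPAR, C1q and uptake and guanylate-binding lists have the longest bars to the right, and mitosis is the list with the longest bar to the left without WT replicate 2.

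Core neutrophil functions had no calls. With all arrays 0 members were called of 9 primary granule, 17 secondary and tertiary granule, 7 phagocyte oxidase, 14 peroxide detoxification, 18 glycolysis, 25 proteasome, 29 lysosome and 20 immediate early genes. At an unadjusted p under 0.05, limma gave 1, 0, 0, 1, 4, 2, 3 and 2 of them, and 2058 of all 10871 genes. Once WT replicate 2 was left out, the rises were 1, 1, 0, 2, 2, 2, 4 and 3 and the falls 1, 3, 0, 0, 0, 0, 2 and 3. The secondary granule list shows how far WT replicate 2 reaches: its median difference was 0.8 with this array and -0.03 without it. Ltf, lactoferrin, read 38400, 36800 and 37500 in KO cells and 34400, 8740 and 32800 in WT cells (0.8 ± 0.46, adjusted p = 0.385), and Elane, neutrophil elastase, 34100, 24300 and 24100 in KO and 29000, 29500 and 32000 in WT cells (-0.15 ± 0.14, adjusted p = 0.586). S100a8, a calprotectin subunit and neutrophil marker, was bright on every array, at 29700 to 31800 in KO, 23200 to 24600 in WT and 25300 to 27300 in syngeneic cells (0.35 ± 0.073, KO minus WT, adjusted p = 0.055). The 14 neutrophil markers as a list did not keep level: on WT replicate 2 they lay at a median of -2.75 relative to each gene's mean over the 9 arrays, against 0.46 to 0.55 on KO arrays and 0.14 and 0.07 on the other WT arrays. Of these 14 markers 0 were called, 4 passed an unadjusted p of 0.05 in limma and 6 rose without WT replicate 2. Ly6g, the sorted antigen, was not analysed here.

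T cell and cytotoxic genes differed widely between arrays of 1 group. Cd3g, a chain of the T cell receptor complex, read 1490, 2600 and 4550 on KO arrays and 384, 8940 and 354 on WT arrays, with 1060 to 1250 on syngeneic arrays. KO arrays thus lay between WT replicate 2 and the other WT arrays and differed 3-fold among themselves (1.17 ± 1.1, adjusted p = 0.591; 2.62 ± 0.31 without WT replicate 2, adjusted p = 0.000189). Ifng read 390, 754 and 1910 on KO arrays, 139, 1950 and 148 on WT arrays and 31.3 to 46.9 on syngeneic arrays (1.02 ± 0.88, adjusted p = 0.566; 2.11 ± 0.41 without WT replicate 2, adjusted p = 0.00468). Gzmk, a T cell granzyme, had the same order of arrays, at 868, 1520 and 2180 in KO and 182, 3320 and 169 in WT cells (adjusted p = 0.469). Of 15 T cell markers 0 were called with all arrays, 0 passed an unadjusted p of 0.05 in limma and 13 rose without WT replicate 2, with a median of 1.59; of 11 NK and cytotoxic markers 0 were called, 0 had an unadjusted p under 0.05 and 7 rose without it. The summed T cell signal on KO arrays was 16300, 21400 and 28300. The part of T cells in the interferon-linked rises was not tested.

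Erythroid markers varied more widely still, with the sums given above. Hba-a1, an alpha globin, read 8320, 2440 and 961 on KO arrays, 9400, 35200 and 8600 on WT arrays and 36000 to 38700 on syngeneic arrays (-2.35 ± 0.77, adjusted p = 0.155). KO lay below WT, by far on replicates 2 and 3. Of 12 markers 0 were called and 3 passed an unadjusted p of 0.05 in limma, as did 2058 of all 10871 genes. Without WT replicate 2, 4 fell and 0 rose, against 9.78% and 10.2% of all genes.

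Genes of the exocrine pancreas, an organ that adjoins the spleen, were among the calls. Of 13 pancreatic acinar genes, 2 rose and 0 fell, 10 of the 13 had all KO arrays above all WT arrays (10.8% of all genes), and 8 rose without WT replicate 2. Amy2a5, pancreatic amylase, read 471, 499 and 1290 on KO arrays, 114, 11.2 and 109 on WT arrays and 1300 to 1450 on syngeneic arrays (2.46 ± 0.42, adjusted p = 0.0303), which made it the second largest rise. Cela2a, an elastase, read 87.4, 100 and 321 on KO arrays, below background at 9.97, 0.13 and 11.6 on WT arrays, and 192 to 224 on syngeneic arrays (1.55 ± 0.31, adjusted p = 0.0499, at least 2.66-fold higher in KO). KO replicate 3 was the highest KO array for both, and its summed acinar signal was 2910, against 1240 and 1300 on KO replicates 1 and 2, 490 to 1000 on WT arrays and 3500 to 3770 on syngeneic arrays. The part of pancreatic RNA in other differences was not tested. Among B cell (6 tested), plasma cell (7), dendritic (7), platelet (8), progenitor (8) and stromal markers (6) 0 were called with all arrays. At an unadjusted p under 0.05 limma gave 0, 1, 0, 2, 1 and 0 of them, and 2058 of all 10871 genes. Without WT replicate 2 the rises were 4, 5, 2, 1, 2 and 1 (10.2% of all genes). The falls were then 0, 0, 0, 0, 1 and 1 (9.78% of all genes). The median was then 0.6 over the B cell and 0.49 over the plasma cell markers.

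With WT replicate 2 left out, further genes were called. The 10 largest falls called only then were Cass4, F13a1, Hdac9, Galnt9, Hbb-bs, Rnase2b, Ccr2, Trem2, Nav1 and Qpct, from -2.51 to -1.33, and 4 of them are described here, chosen after their values were seen. F13a1, the coagulation factor XIII subunit of monocytes, read 1780, 1790 and 1300 in KO cells, 7850, 2810 and 8230 in WT cells and 6840 to 7920 in syngeneic cells (-2.27 ± 0.13, adjusted p = 1.88e-06; with all arrays -1.78 ± 0.37, adjusted p = 0.0566). All KO arrays lay below all WT arrays, WT replicate 2 included. Ccr2, the receptor that draws monocytes out of the marrow and the receptor for Ccl7 and Ccl12, read 559, 533 and 368 in KO cells and 1350, 228 and 1400 in WT cells (-1.4 ± 0.13, adjusted p = 4.24e-05; with all arrays adjusted p = 0.568). Trem2, a lipid-sensing receptor of macrophages, read 122, 78.3 and 73.8 in KO and 339, 30.7 and 349 in WT cells (-1.39 ± 0.12, adjusted p = 2.01e-05; with all arrays adjusted p = 0.486). For Ccr2 and Trem2 WT replicate 2 was the lowest of the 6 arrays, so the groups overlapped. The largest fall of this kind, Cass4, an adhesion scaffold, read 359, 196 and 241 in KO cells, 1820, 43.1 and 1740 in WT cells and 279 to 292 in syngeneic cells. The 10 largest such rises ran from Cd6 (3 ± 0.34), a T cell surface receptor, through Gzmk (2.63 ± 0.26), Sidt1 (2.63 ± 0.26) and Cd3g to Zap70 (2.34 ± 0.26), a kinase of the T cell receptor.

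Genes near Ido1 were looked at because the deletion was made in another strain and crossed to B6, and donor-strain sequence can remain around such a locus. Of the 25 tested genes on either side of Ido1 on chromosome 8, 1 rose and 1 fell, against 1.18% and 0.828% of all genes. Ap3m2, an adaptor complex subunit 6 tested genes away, read 305, 323 and 335 in KO and 228, 211 and 182 in WT cells (0.51 ± 0.087, adjusted p = 0.0319), but its dimmer probe had a difference of -0.22. Ckap2, a mitotic spindle protein 16 genes away, read 451, 646 and 617 in KO and 1000, 834 and 937 in WT cells (-0.65 ± 0.13, adjusted p = 0.0499). The median over the 50 was -0.1. Without WT replicate 2 there were 2 rises and 6 falls among the 50, against 10.2% and 9.78% of all genes. Xist, the RNA that silences an X chromosome in females, was at -9.77, -10.3 and -4.68 on KO arrays, 347, 374 and 464 on WT arrays and 713 to 910 on syngeneic arrays (-2.98 ± 0.13, adjusted p = 9.07e-05, at least 5.68-fold lower in KO). Of 7 sex-linked genes tested, 0 rose and Xist was the 1 that fell, and without WT replicate 2, 0 rose and 2 fell. Of the 3 tested genes of the Y chromosome 0 were called. Eif2s3y, a Y-linked translation factor subunit chosen after its values were seen, was represented by a probe near background, at 17.4, 5.88 and 8.42 in KO and 12.9, 14.3 and 19.1 in WT cells (-0.09 ± 0.091, adjusted p = 0.627). Its other probe read 37, 111 and 54 in KO cells, all above background, against -12.9, -9.22 and -8.7 in WT and -12.2 to -7.14 in syngeneic cells, all below it, and the mean of both probes gave a difference of 0.56, which passed the test. The labels give no sex, and differences of sex between the groups cannot be told apart from genotype.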

How the data were processed

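RNA of Gr-1+ splenocytes was hybridised to Illumina mouse BeadChips, 1 array per sample. For 45281 probes and 9 arrays the deposited table has, per the file headers, signal (intensity) and detection p-value columns; the submitters' processing notes name GenomeStudio, without a version. The deposited intensity values were already quantile-normalized, with background removed, since every array has the same upper quartile (102) and maximum (47219), the minimum is -21 and 35.6% of signals are at or below 0. Equal distributions make total signal uninformative, and the number of arrays limits precision. The detection p-values, which follow the deposited signals only in part, and the series matrix, deposited on the log2 scale, were not used here. All 9 signal columns were matched to samples, and 0 value columns were left unmapped.

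Probes were named by the platform annotation: 34885 have 1 symbol, 18 several and 10378 are unnamed here. Signals were corrected with limma 3.58.1 in R 4.3.3 (normexp, offset 50), quantile-normalized and put on the log2 scale, which understates the change of dim genes. Probes above the limit of 14.3 on at least 3 of 9 arrays were kept (20750), and 10871 genes were represented by their brightest probe (4244 had several). lmFit and eBayes fitted 1 mean per group over all 9 arrays with no covariate. Where a group had no array above the limit, a bound was computed against that group's mean, with signals under the limit set to it. The fit was also run on simulated data in which a gene had the same spread on every array. That run could not test the fit for arrays as unequal as these.

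Named genes were the 15 largest rises and falls among genes called with and without WT replicate 2 whose groups did not overlap (no clone names, predicted or sex-linked genes), every called member of a list or else up to 4 with the smallest p, Ido1, Ido2, Kmo, Kynu, Xist and called neighbours of Ido1. Of 1035 list genes in 50 lists, 943 were on the array and 780 tested. Members, lists and tests were chosen with earlier results of these data known, so no list is independent evidence. Deviations from the group means of same-numbered KO and WT arrays correlated at 0.11, -0.11 and -0.17 over genes. WT replicate 2 dominates the WT deviations, so this check could not show whether the numbers pair the samples. Alternatives were signals floored at the limit without correction, an offset of 16, no filter or a stricter one, a median shift, averaging of a gene's probes, array weights, the 6 arrays alone, a replicate block, and each array left out.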

Additional observations from a re-analysis of the deposited data

How the results depend on the processing

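Against 218 genes changed in KO vs WT, 133 were found with signals floored at the limit, 2967 with array weights (1424 higher and 1543 lower, 48% higher against 58.7%), 2 with the 6 KO and WT arrays alone and 31 with a replicate block (the last 2 have fewer residual degrees of freedom); leaving out single arrays gave 33 (KO replicate 2) to 2177 (WT replicate 2), and 368 without KO replicate 1 (145 higher, 223 lower). The fit of 6 arrays also lacked the syngeneic arrays, the group with the closest replicates. The weights gave WT replicate 2 a weight of 0.04 and KO replicate 1 of 0.45. For genes of a list changed in KO vs WT the count was 54, against 32 floored, 341 weighted, 2 with 6 arrays and 11 with the replicate block, and 12 to 282 with single arrays left out. For genes that neighbour Ido1 on its chromosome the count was 2, and 0 were called floored, with 6 arrays or with the replicate block, 1 with an offset of 16, with no filter, with the filter on all arrays or with the mean of probes, 12 with weights, and 0 to 8 with single arrays left out. Ido1 in KO vs WT (-0.55) kept its sign but not its call when floored (-0.84, adjusted p = 0.0683), with 6 arrays (-0.55, 0.203) and with the replicate block (-0.55, 0.102), and ranged from -0.6 to -0.49 (adjusted p 0.00327 to 0.139) with single arrays left out. It was not measured with the filter on all arrays. Kynu in KO vs WT, not called, had 0.05 with all arrays, -0.1 with weights and -0.11 (without WT replicate 2) to 0.13 with an array left out. Eif2s3y in KO vs WT had -0.09, but 0.56 (adjusted p = 0.0269) with the mean of its probes, the second of which was above background on the KO arrays alone.

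Of 81 genes named as called, 0 reversed; 46 kept the call floored, 67 with an offset of 16, 72 with no filter, 68 of 70 with the filter on all arrays, 81 with a median shift, 65 with the mean of probes, 81 with weights, 2 with 6 arrays, 21 with the replicate block, and 20 (without KO replicate 2) to 81 (without WT replicate 2) with an array left out. The causes were not tested. With 3 arrays a group, KO on a chip of its own, signals near background for dim genes such as Ido1, and 1 WT array unlike the others, small differences were not resolved here.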

Other observations

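Several called genes outside the lists and the naming rule, chosen after their values were seen, extend the groups described in the report. Gbp2b, another guanylate-binding protein, read 630, 633 and 671 in KO cells, 250, 135 and 223 in WT cells and 6.22 to 9.1, below background, in syngeneic cells (1.43 ± 0.15, KO minus WT, limma adjusted p = 0.0065). Serpina3f, a protease inhibitor of the interferon-rich Serpina3 cluster with near-identical copies that its probe may also read, had 7250, 8320 and 8690 in KO cells, 3770, 3290 and 4000 in WT cells and 708 to 853 in syngeneic cells (1.12 ± 0.11, adjusted p = 0.00483). Both stepped up in the order syngeneic, WT, KO. C2, a complement protease, read 939, 1090 and 1040 in KO and 441, 187 and 452 in WT cells (1.43 ± 0.25, adjusted p = 0.032). Siglec1, a sialic acid receptor of marginal zone macrophages that interferon also induces, had 426, 519 and 465 in KO and 197, 66.4 and 198 in WT cells (1.35 ± 0.25, adjusted p = 0.0367). Itgad, an integrin chain of red pulp macrophages, read 805, 953 and 811 in KO cells, 352, 292 and 399 in WT cells and 3470 to 3980 in syngeneic cells (1.16 ± 0.12, adjusted p = 0.00498), the same order as Spic. Fcgrt, the neonatal Fc receptor, followed with 4560, 5170 and 4660 in KO cells, 2310, 1940 and 2270 in WT cells and 9520 to 10900 in syngeneic cells (1.12 ± 0.1, adjusted p = 0.00413). Thbs1, thrombospondin 1, was at 144, 146 and 137 in KO cells and below background at 10.8, -5.52 and 12 in WT cells, so that it was at least 2.58-fold higher in KO (adjusted p = 0.00226). Id2, an inhibitor of helix-loop-helix factors, read 2890, 3220 and 3490 in KO and 1380, 1630 and 1320 in WT cells (1.11 ± 0.11, adjusted p = 0.00413).

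Among the falls outside the lists were genes of the cell cycle. Ccnf, cyclin F, read 202, 193 and 190 in KO and 356, 310 and 358 in WT cells (-0.64 ± 0.078, adjusted p = 0.01). Cdkn2c, a cyclin-dependent kinase inhibitor, read 966, 1190 and 1020 in KO and 1740, 1520 and 1760 in WT cells (-0.63 ± 0.1, adjusted p = 0.0275). Kif18b, a mitotic kinesin, read 1020, 951 and 986 in KO and 1440, 2160 and 1510 in WT cells (-0.73 ± 0.14, adjusted p = 0.0461). For all 3 the KO arrays lay below all WT arrays. Ass1, which makes the arginine precursor argininosuccinate, read 1390, 1310 and 1190 in KO cells, 2230, 1760 and 2390 in WT cells and 1100 to 1160 in syngeneic cells (-0.68 ± 0.12, adjusted p = 0.0333), so that KO lay nearer to syngeneic cells.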
